A study of Mus musculus with 26 samples.

Results

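The libraries described here came from conventional retinal ganglion cell (cRGC) pools of Opn4-GFP mice at 2 ages. Of the 26 libraries of the series, 9 belonged to these pools, 6 from adults and 3 from pups at postnatal day 5 (P5), and they were taken by their labels alone. The adult mice were 27 to 33 days old and the pups 4 to 6 days old. Opn4-GFP is a bacterial artificial chromosome transgene of the GENSAT project in which the melanopsin gene drives GFP, and every animal of both ages carried it. Retinas of several mice were pooled and dissociated, cells bearing the surface protein Thy-1 were held on magnetic beads, and fluorescence-activated sorting divided the dye-excluding cells into GFP-positive pools, called ipRGC for intrinsically photosensitive retinal ganglion cell, and GFP-negative pools, called cRGC. The transgene marks only some ipRGCs, so unlabelled ipRGCs could enter the GFP-negative gate. The question was how the RNA of the cRGC pools differed between P5 and adulthood, and which of the differences lay in genes of retinal ganglion cells (RGCs) and which in genes of other retinal cells. The 6 adult and 3 P5 GFP-positive libraries of the same mouse line, sorted from the same suspensions, served as a second pair of ages.

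RGCs are the output neurons of the retina. In the first postnatal days their axons are already in the optic nerve and brain, and the cells are known to carry high levels of young tubulins, doublecortin and collapsin response mediator proteins, which organise microtubules in growing axons. As the eyes open, RGCs gain mature synapses and the potassium and sodium channels of sustained firing. Müller glia, the radial glia of the retina, span its whole depth. They take up glutamate, convert it to glutamine and recycle retinoids for cones, and their gene expression matures over the same postnatal weeks, so a pool that holds glia at both ages can differ in glial RNA through the number of glia, through their maturity or through both.

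The promoters of 4 genes that bracket the comparison are shown first, because these genes had the clearest high and low levels in the pools. Each window runs from 250 bases before to 50 bases after the RefSeq start on GRCm38.p6, 5′ to 3′ on the gene's strand, and capitals mark the homeodomain core TAATTA, which is its own reverse complement. Glul encodes glutamine synthetase and its window is chr1:153899679-153899978 on the plus strand. Rlbp1 encodes the retinaldehyde-binding protein of Müller glia, chr7:79386978-79387277 on the minus strand. Dcx encodes doublecortin, chrX:143933170-143933469 on the minus strand, and Islr2 encodes a leucine-rich repeat protein of RGC axons, chr9:58204270-58204569 on the minus strand.
Glul: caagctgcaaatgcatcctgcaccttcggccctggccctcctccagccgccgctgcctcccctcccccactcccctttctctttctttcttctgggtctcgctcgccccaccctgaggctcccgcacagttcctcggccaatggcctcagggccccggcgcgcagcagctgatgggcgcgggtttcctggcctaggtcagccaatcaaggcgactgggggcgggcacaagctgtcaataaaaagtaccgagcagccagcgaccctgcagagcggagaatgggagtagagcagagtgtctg
Rlbp1: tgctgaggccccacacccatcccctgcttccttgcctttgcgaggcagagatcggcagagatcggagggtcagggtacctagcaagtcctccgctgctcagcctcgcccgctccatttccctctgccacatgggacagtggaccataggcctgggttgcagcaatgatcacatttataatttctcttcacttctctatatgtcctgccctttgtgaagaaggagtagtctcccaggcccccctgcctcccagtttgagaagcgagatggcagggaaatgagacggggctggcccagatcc
Dcx: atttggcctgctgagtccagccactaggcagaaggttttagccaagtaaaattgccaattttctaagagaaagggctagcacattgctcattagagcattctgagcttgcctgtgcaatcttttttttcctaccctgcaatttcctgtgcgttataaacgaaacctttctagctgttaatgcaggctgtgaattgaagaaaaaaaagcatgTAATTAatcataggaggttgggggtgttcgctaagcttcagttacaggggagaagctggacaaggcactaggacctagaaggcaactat
Islr2: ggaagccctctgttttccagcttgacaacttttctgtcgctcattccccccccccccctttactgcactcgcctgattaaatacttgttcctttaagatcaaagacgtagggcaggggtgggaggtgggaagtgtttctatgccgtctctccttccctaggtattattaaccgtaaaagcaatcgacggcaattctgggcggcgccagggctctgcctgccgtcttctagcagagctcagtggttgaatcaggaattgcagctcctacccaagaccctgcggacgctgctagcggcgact
TAATTA occurred in 1 of these 4 windows, that of Dcx, and in 1436 (5.31%) of the 27025 promoters of the same length in the RefSeq table. The SOX core AACAAT, or its reverse complement ATTGTT, was in none of the 4 and in 2952 (10.9%) of all promoters. These letters are a description of the windows and not a test of any factor.

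Reads summed over the listed genes ranged from 3927386 to 35090060 in the adult cRGC libraries and from 5467809 to 8961523 at P5. The deposited table lists genes separately for each age after a filter on low values, and 11236 genes were listed at both ages, 2441 at P5 only and 351 in adults only. The adult libraries stood further apart from one another than the P5 libraries did. Pearson's r of log2 values across genes was 0.49 to 0.75 between pairs of adult cRGC libraries and 0.93 to 0.95 between P5 pairs, a description in which all pairs share the same genes. Between an adult and a P5 library it was 0.50 to 0.69, with a median of 0.61 against 0.60 among adult pairs, so by this measure adult pools were no closer to one another than to P5 pools. Adult pools 2 and 4 had 1628 and 2413 of the 11236 genes at 0, against 126 to 522 in the other 4 adult pools and 4 to 62 at P5. Each count given first below was therefore also computed without adult pools 2 and 4, an alternative chosen after seeing the data. Opn4, the melanopsin gene, checked the sort: it was at 69.9 to 466 CPM (read counts scaled to a common library total) in adult cRGC libraries and 39.3 to 52.5 CPM at P5, against means of 6633 ± 2955 CPM (SD, n = 6) and 2507 ± 632 CPM (SD, n = 3) in adult and P5 ipRGC libraries.

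The adult cRGC pools held far more RNA of Müller glia genes and far less of RGC genes than the P5 pools. Summed over 12 Müller glia markers, the adult libraries had 17938 ± 5627 CPM of listed reads (SD, n = 6), with 9946 as the lowest and 25655 as the highest, and the P5 libraries had 513, 488 and 546. Every adult library lay above every P5 library, and the ratio of the means was 34.8. Summed over 16 RGC markers, the order was turned round: 777 to 1871 CPM in adults, with a mean of 1439 ± 392 (SD, n = 6), against 10758, 10687 and 9395 at P5. In bulk RNA, fewer cells of a type and less RNA per cell cannot be told apart.

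In each of the 6 adult cRGC libraries the Müller glia sum exceeded the RGC sum. The quotient of the glial over the RGC sum was 6.01 in adult pool 2 and 7.78 in pool 4, between 13.0 and 15.6 in pools 1, 3 and 6, and 27.9 in pool 5. At P5 it was 0.0477, 0.0457 and 0.0581. The name cRGC describes the gate of the adult pools, in which RGC markers were present at 777 CPM or more but were outnumbered by glial ones. The GFP-positive pools did not share this: the quotient was 0.105 to 0.265 in adult and 0.070 to 0.076 in P5 ipRGC libraries. Their RGC sum in adults was 0.788 of that at P5, and their Müller glia sum was 1.85 times that at P5.

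**Figure D1:**
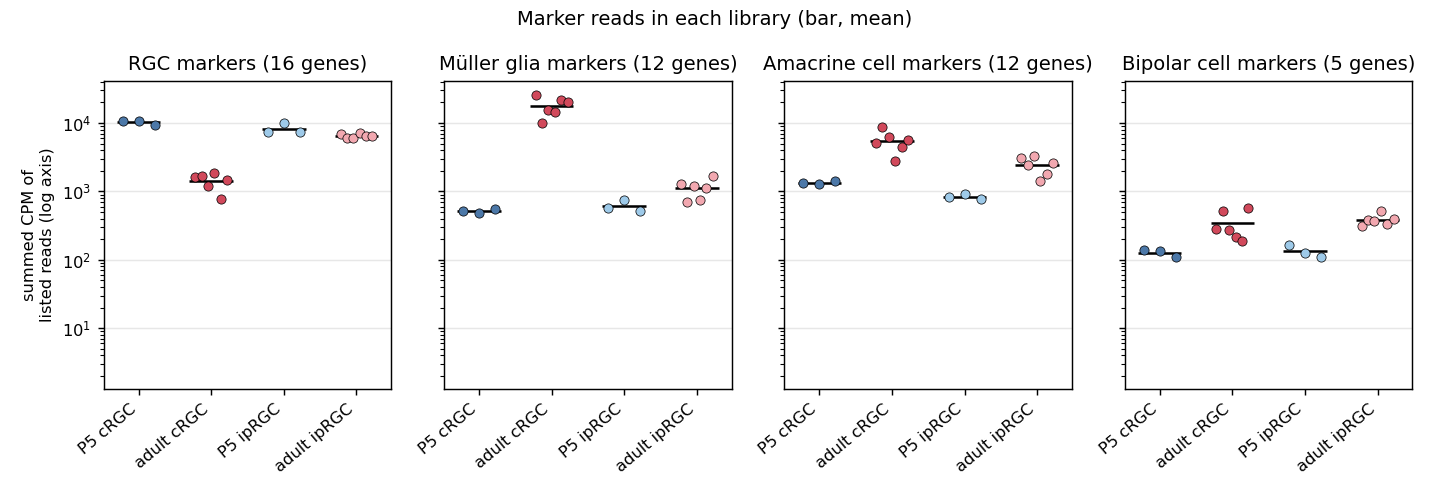
Summed reads of 4 marker lists in each library, as CPM of listed reads on a log axis, for the P5 and adult cRGC and ipRGC groups; points are libraries and bars are group means. Adult cRGC libraries (9946 to 25655) lie above the P5 ones (488 to 546) for Müller glia markers and below them for RGC markers.

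Across the 11236 genes, 315 (2.8%) were higher and 206 (1.83%) lower in adult than in P5 cRGC pools, at an adjusted p under 0.05 and a difference over 2-fold (limma on log2(CPM + 1), Benjamini-Hochberg). The adult and P5 libraries did not overlap for 308 of the 315 and 199 of the 206. Without adult pools 2 and 4 the counts were 694 (6.18%) and 549 (4.89%), of which 315 and 194 were among the genes called with all pools. The median difference over all genes was −0.34 on the log2 scale by limma, but 0.31 with the edgeR quasi-likelihood test and 0.29 with DESeq2. The split of calls rests on the scale. When each library was scaled to its RGC marker reads in place of all reads, the median gene shifted to 1.96, 3275 genes (29.1%) were higher and 16 (0.142%) lower, and higher calls made up 99.5% of calls in place of 60.5%. Changes given below are per total listed reads of each library after TMM scaling of all libraries together, unless the ratio to RGC reads is named. They are called per total reads for short. Scaling by listed reads only, without TMM, gave 281 higher and 253 lower genes.

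All 12 Müller glia genes listed at both ages rose in adult cRGC pools, with a median difference of 5.01 on the log2 scale against −0.34 for all genes. They also made 12 of 12 higher calls without adult pools 2 and 4, with the edgeR quasi-likelihood test and with RGC scaling. Glul, which turns glutamate into glutamine, had 4780 CPM in the lowest adult library, a median of 7049 and 9633 in the highest, against 91.4, 74.0 and 106 at P5. All 6 adult libraries lay far above the 3 P5 libraries. The difference was 6.26 on the log2 scale (SE 0.31, adjusted p = 4.23e-09), a 76.4-fold rise.

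Rlbp1 had the largest rise of all genes meeting the rule for named genes. It was at 542, 877 and 1290 CPM in the lowest, median and highest adult libraries and at 0, 1.51 and 3.0 CPM in the P5 libraries, so the groups were wholly apart. The difference was 8.59 (SE 0.57, adjusted p = 1.48e-07). Apoe, the lipid carrier that Müller glia secrete, was at 582 to 1149 CPM in adults with a median of 869, and at 0.489, 1.72 and 31.7 CPM at P5. Its P5 pool 3 stood above the other P5 pools, yet well below every adult pool, and the difference was 7.36 (SE 0.74, adjusted p = 1.06e-05).

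The glutamate transporter Slc1a3 rose by 6.71 and the potassium channel Kcnj10, which siphons potassium through Müller endfeet, rose by 8.20. Clu, a secreted chaperone, rose by 5.41 and Dkk3, a secreted protein of the Dickkopf family, by 4.62. The smallest rises of the list were those of Gpr37, at 3.05, and of the intermediate filament gene Vim, at 3.26, calls lost in 5 and 2 of the 9 fits that each left out 1 library. These were also the list's exceptions to separation, because Vim was at 53.0 CPM in the lowest adult library and 53.9 in the highest P5 library, and Gpr37 at 31.6 and 32.9. Rdh10, a retinol dehydrogenase, rose by 3.51, a call lost in 6 of these fits. A further 7 Müller glia markers were listed for adults only, so no difference was fitted: Abca8a averaged 891 CPM, Aqp4, the water channel of glial endfeet, 660 CPM, Sox8 362 CPM and Sox9 194 CPM (n = 6 each). Another 2 markers of the list were listed at P5 only, at low levels. Id3, an inhibitor of basic helix-loop-helix factors, was at 2.19, 0 and 12.4 CPM and Hes1, a target of Notch signalling, at 1.28, 0.584 and 3.24 CPM in P5 pools 1, 2 and 3, and neither has an adult value.

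Several of the 15 largest rises outside the marker list are also genes known from glia or vessels. Slc38a3, a glutamine transporter, rose by 7.95, Fzd5, a Wnt receptor, by 7.41, Cp, the copper oxidase ceruloplasmin, by 7.33, and Car2, a carbonic anhydrase, by 6.89. Kdr, the VEGF receptor of endothelium that Müller glia also carry, was at 482 to 938 CPM in adult libraries and 8.15, 1.72 and 4.86 CPM at P5, a rise of 6.92 without overlap. The other vascular marker listed at both ages, Rgs5, was not called, and their summed reads at P5 ranged from 3.31 to 305 CPM, so that the adult over P5 ratio of 6.31 became 66.8 without P5 pool 3.

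The remaining genes of that set were Crym (6.88), which encodes a thyroid hormone-binding protein, Plekhb1 (6.78), Pla2g16 (6.74), a phospholipase, C1ql1 (6.72), a secreted C1q-like protein, Cav1 (6.66), the caveolin of membrane invaginations, and Bmp3, all as log2 differences with adjusted p of 7.36e-05 or less. Bmp3, a member of the BMP family, had only 2 reads over the P5 libraries against 18532 in adults, a ratio of 2664 with a 95% counting interval of 737 to 21998 that covers counting error only.

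**Figure D2:**
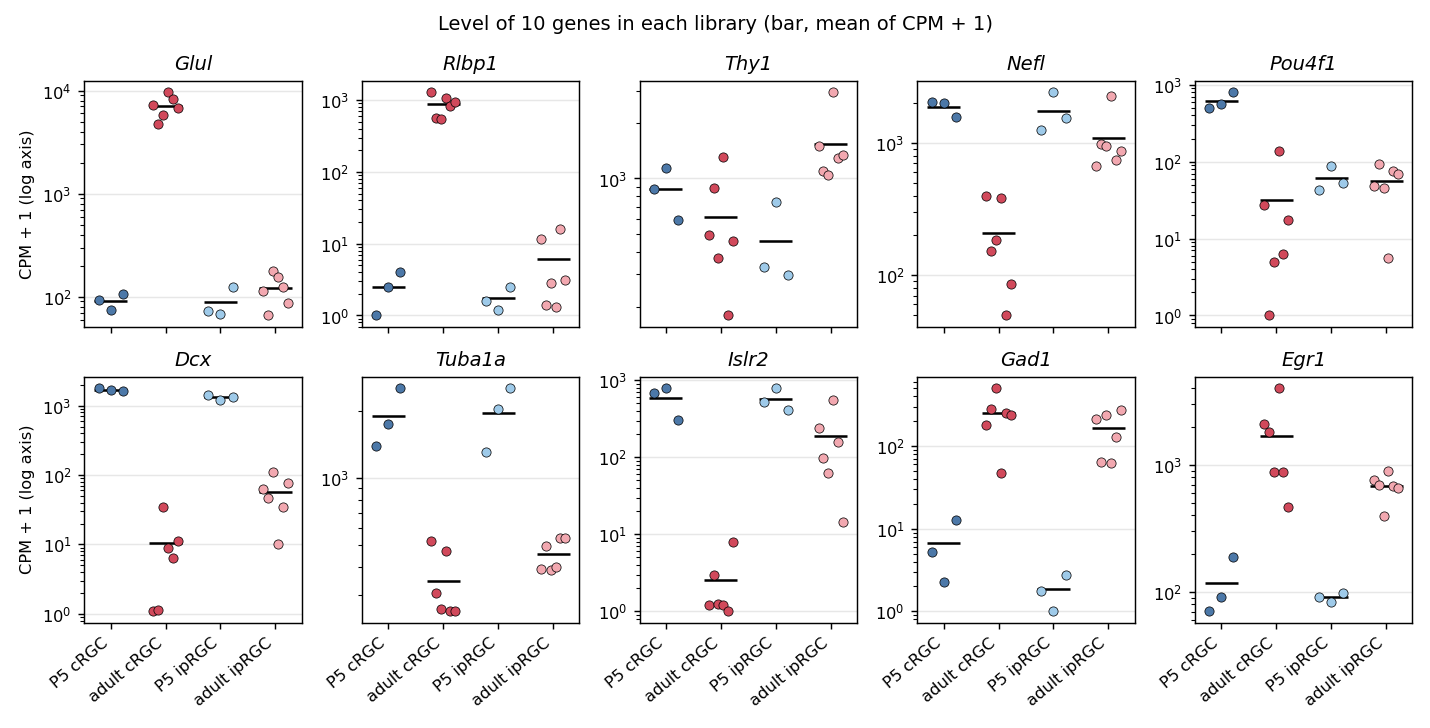
Level of 10 genes in each library as CPM + 1 on a log axis; points are libraries, bars are group means. Glul and Rlbp1 are high in all 6 adult cRGC libraries and low in the other 3 groups, whereas Dcx is high in both P5 groups and low in both adult groups.

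Markers of other retinal cells also rose, most broadly those of amacrine cells, inhibitory interneurons, some of which lie beside RGCs in the ganglion cell layer. Of 12 amacrine markers, 8 rose and none fell, with a median difference of 2.03, and the sums were 5550 ± 2003 CPM in adults (SD, n = 6) and 1342 ± 59.4 at P5 (SD, n = 3). Slc6a9, the glycine transporter of glycinergic amacrine cells, was at 72.1, 209 and 803 CPM in the lowest, median and highest adult libraries and at 3.42, 1.4 and 2.58 CPM at P5. The groups did not overlap and the difference was 6.21 (SE 0.77, adjusted p = 7.36e-05). The transcription factor Tfap2a rose by 5.99, Tfap2b by 5.17, and the glutamate decarboxylases Gad1 and Gad2, which make GABA, by 5.25 and 4.21. Rises of Dab1 (2.37), an adaptor of Reelin signalling, and Pax6 (1.67) were smaller, and these calls were lost in 4 and 7 of the 9 fits that left out a library. Part of the Pax6 exons overlaps Elp4 on the other strand.

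Only 1 of 3 horizontal cell genes rose, Prox1 (5.07), a homeobox gene that amacrine and bipolar cells also use, and 1 of 5 bipolar genes, Lrtm1 (5.01), whose call was lost without P5 pool 1 or 2. Of 4 progenitor genes 1 rose, Notch1 (6.52), the receptor gene of the Notch pathway that adult Müller glia also express. No rod gene of the 3 listed at both ages was called, although the rod transducin gene Gnat1 was at 5.14 to 336 CPM in adult libraries and 1.03 to 3.10 at P5, a difference of 4.45 (SE 1.26, adjusted p = 0.0546). Gfap, the astrocyte filament gene, was low at both ages, at 9.27 ± 7.03 CPM in adults (SD, n = 6) and 6.85, 3.77 and 34.9 CPM at P5. No microglial gene was listed at both ages. Cone markers, of which 1 was listed at both ages, were not called.

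Of the 16 RGC markers, 12 fell and none rose in adult cRGC pools per total reads, with a median difference of −3.87, whereas scaling to RGC reads, which are the sum of these same genes, left 2 lower and 1 higher and a median of −1.22. Without adult pools 2 and 4, 13 of 16 fell, and the edgeR quasi-likelihood test called 8, beside 0.561% of all genes lower by that test. Nefl, the light neurofilament gene, had 48.6, 168 and 393 CPM in the lowest, median and highest adult libraries and 2042, 1995 and 1578 CPM at P5. No adult library reached the P5 range, and Nefl fell by 3.52 on the log2 scale (SE 0.58, adjusted p = 0.00121). Nefm fell by 3.69, and the exons of these neighbouring genes overlap on opposite strands, so their reads cannot be fully told apart in counts without strand.

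Pou4f1, the POU-domain transcription factor also called Brn3a, ranged from 0 to 135 CPM in adults with a median of 10.9, against 503, 557 and 801 CPM at P5. The groups were far apart although adult pool 4, at 135 CPM, stood well above the other adult pools, and Pou4f1 fell by 5.75 (SE 1.14, adjusted p = 0.00554). Pou4f2 fell by 4.65, the neuronal tubulin Tubb3 by 4.86 and γ-synuclein, Sncg, by 4.57. The transcription factor Ebf1 fell by 4.88. Rbpms, an RNA-binding protein found in nearly all mouse RGCs, was at 2.08 to 260 CPM in adults and 614, 623 and 652 CPM at P5. It fell by 4.05 (SE 0.99, adjusted p = 0.0239) with no overlap, a call lost in 5 of the 9 fits that left out a library. Slc17a6, the vesicular glutamate transporter of RGCs, fell by 3.11. The calls of Pou4f2, Sncg and Slc17a6 were each lost whichever P5 library was left out, and that of Pou4f1 without P5 pool 3.

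The 4 RGC markers that were not called were Thy1, Isl1, Nrn1 and Nefh. Thy1 encodes the surface protein by which the pools were enriched. It was at 178, 474 and 1307 CPM in the lowest, median and highest adult libraries and at 880, 1140 and 593 CPM at P5, so the ages overlapped, and the difference was −0.73 (SE 0.52, adjusted p = 0.558), or 1.93 in the opposite direction when scaled to RGC reads. In the ipRGC pools Thy1 rose from 455 ± 248 CPM (SD, n = 3) to 1538 ± 712 CPM (SD, n = 6), a difference of 1.78 (adjusted p = 0.018). Isl1, a LIM homeobox gene that bipolar and starburst amacrine cells also express, had an adult median of 4.71 CPM and a highest adult value of 160 CPM, against 82.1 to 118 at P5. Nrn1, the growth-promoting neuritin gene, ranged from 2.88 to 247 CPM in adults against 188 to 214 at P5, and Nefh, the heavy neurofilament gene, from 0.329 to 117 against 20.8 to 27.0.

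Genes of axon growth and the young cytoskeleton fell together with the RGC markers: 14 of 21 fell and none rose per total reads, with a median of −2.71, while scaling to RGC reads left 2 lower and 2 higher and a median of −0.16. Without adult pools 2 and 4, 20 of 21 fell, and 10 fell by the quasi-likelihood test. Dcx, the microtubule-binding protein doublecortin, had the largest fall among the named genes. It was at 0.0847, 6.66 and 33.5 CPM in the lowest, median and highest adult libraries and at 1792, 1689 and 1613 CPM at P5. The 3 P5 libraries were close to each other, and the highest adult library, pool 3, was far below them. Dcx fell by 8.28 on the log2 scale (SE 1.02, adjusted p = 7.36e-05).

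Dpysl3, a collapsin response mediator, was at 6.02 to 276 CPM in adults with a median of 27.9, and at 3306, 3321 and 2396 CPM at P5. Adult pools 2 and 3, at 268 and 276 CPM, stood above the other adult pools but far below P5, and Dpysl3 fell by 6.27 (SE 1.01, adjusted p = 9.64e-04). Its relative Dpysl5 fell by 4.04 and the microtubule regulator Stmn2 by 4.02. The β-tubulin Tubb2b fell by 5.64 and Tubb2a by 3.17, near-identical genes between which reads may have been divided.

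Tuba1a, the α-tubulin of young neurons, was at 253, 283 and 523 CPM in the lowest, median and highest adult libraries and at 1392, 1746 and 2517 CPM at P5. The groups did not overlap, and Tuba1a, which also has near-identical relatives, fell by 2.47 (SE 0.39, adjusted p = 7.62e-04). Map1b, a microtubule protein of growing axons, fell by 2.36 from levels of 12789, 12643 and 7528 CPM at P5, the adhesion molecule L1cam by 2.63, Basp1 by 1.97 and Marcksl1 by 4.13. Of the axon growth genes named, the call of Marcksl1 was lost in 4 of the 9 fits that left out a library, that of Tubb2b in 3, those of L1cam and Basp1 in 2 each and that of Tubb2a in 1. Gap43, the growth-cone phosphoprotein, was not called. It was at 886, 924 and 734 CPM at P5 and at 0.329 to 67.6 CPM in 5 adult pools, but pool 2 had 1201 CPM, and the difference was −4.38 (SE 1.31, adjusted p = 0.0696).

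The other genes among the 15 largest falls included Islr2, at 684, 781 and 306 CPM at P5 and at a median of 0.233 CPM in adults with 6.89 as the highest, which fell by 8.20 (SE 1.05, adjusted p = 1.10e-04). Chrna3, a nicotinic receptor subunit of the retinal waves, fell by 6.49, and Slc18a2, the vesicular monoamine transporter that a set of immature RGCs is known to express for a time, by 5.54. Ctxn1, the neuronal membrane protein cortexin, fell by 6.39, Pirt, a membrane regulator of sensory channels, by 6.13, and Cdkn1a, the cell-cycle inhibitor p21, by 6.02. Ptpn5, the tyrosine phosphatase STEP, fell by 5.91, Nkain1, a sodium pump-interacting protein, by 5.77, Nnat, the imprinted gene neuronatin, by 5.62, and the ubiquitin ligase Trim36 by 5.50. The calls of Ptpn5, Tubb2b, Slc18a2, Cdkn1a, Pou4f1 and Nkain1 were each lost without at least 1 of the P5 libraries. With the quasi-likelihood test the calls of Ctxn1, Trim36, Cdkn1a, Ptpn5, Nkain1, Pou4f1 and Tubb2b were lost, and that of Ptpn5 also with DESeq2.

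Dividing each library by its own RGC marker reads sets the falls apart. Axon growth genes together had 4.11 ± 1.14 reads per RGC marker read in adult cRGC libraries (SD, n = 6) and 3.22 ± 0.12 at P5 (SD, n = 3), and the adult range of 2.83 to 5.84 enclosed that at P5. Dcx, by contrast, had 5.30e-05 to 0.0273 reads per RGC marker read in adults and 0.173 to 0.189 at P5, without overlap. Islr2 had 0 to 0.00516 in adults and 0.0356 to 0.0801 at P5. Tuba1a overlapped, at 0.148 to 0.380 in adults and 0.147 to 0.293 at P5. Thy1, itself 1 of the 16 markers in the divisor, lay higher in every adult library, at 0.268 to 0.491 against 0.0689 to 0.117. In ipRGC pools the axon growth genes together had 1.94 to 2.93 in adults and 3.53 to 4.63 at P5, without overlap. Tuba1a had 0.0396 to 0.0906 in adult and 0.192 to 0.320 in P5 ipRGC libraries. Which cells supplied the reads of these genes in adult cRGC pools was not tested.

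The 16 genes that remained lower in adults on the RGC scale included Islr2 (−6.15), Dcx (−5.82), Chrna3 (−4.29), Pirt (−4.26), Ctxn1 (−4.18), Dpysl3 (−3.62), Trim36 (−3.55), Dock11 (−3.25), AW551984 (−3.23), Pou4f1 (−3.22), Rprm (−3.10), Rac3 (−2.87), Hs3st2 (−2.58), Tubb3 (−2.25) and Synpo2 (−1.91), as log2 differences with adjusted p of 0.0498 or less. Pou4f1 and Tubb3 are themselves among the markers summed as the divisor, so their place here is not independent of it. On the same scale 15 of 21 synaptic vesicle genes were higher and none lower, with a median of 2.71, beside 29.1% of all genes and a median of 1.96. Amacrine cells also carry synaptic vesicle genes, and the amacrine sum per RGC marker read was 4.13 ± 1.62 in adults and 0.131 ± 0.0155 at P5. The part of either cell type in these rises was not tested.

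**Figure D3:**
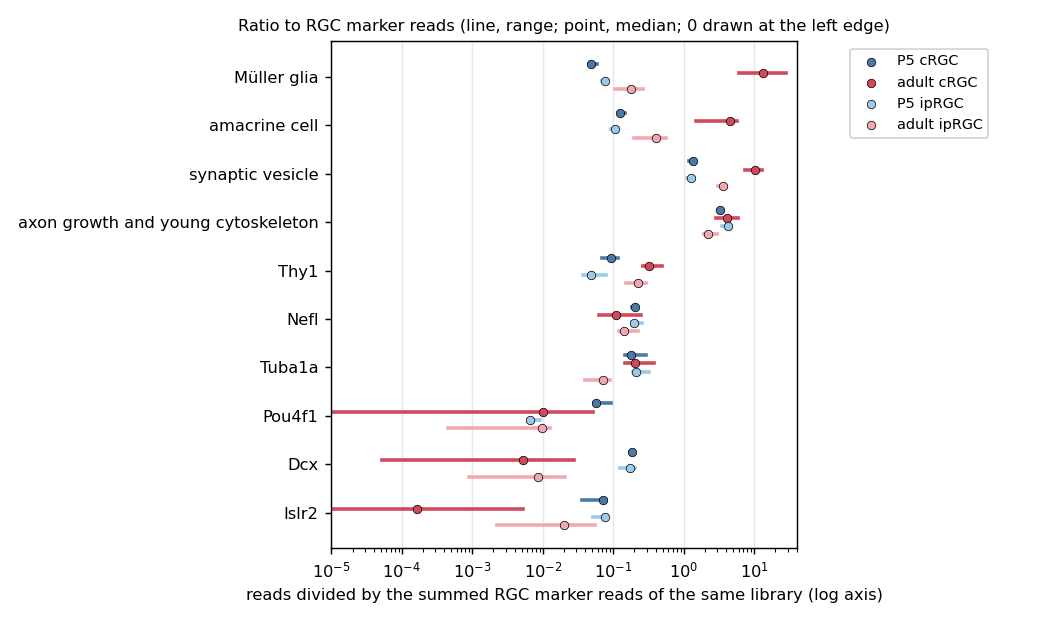
Reads of gene lists and single genes divided by the summed RGC marker reads of the same library, on a log axis; points are medians and lines run from the lowest to the highest library of each group. Axon growth genes overlap between ages in cRGC pools, whereas Dcx and Islr2 lie lower in every adult cRGC library than at P5.

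The ipRGC pools gave an age comparison with few glial reads, in which 147 genes (1.31%) were higher and 58 (0.516%) lower in adults. Of the genes called in both pool types, 64 rose in both, which is 20.3% of the cRGC and 43.5% of the ipRGC rises, and 23 fell in both, 11.2% of the cRGC and 39.7% of the ipRGC falls. Only 2 rose in cRGC and fell in ipRGC pools, and none did the reverse. The pool types share no library, but both were sorted from the same mice.

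Among falls shared by both pool types were 7 axon growth genes. Dcx was at 9.20 to 109 CPM in the 6 adult ipRGC libraries and at 1402, 1189 and 1347 CPM in the P5 ones, and Dcx fell by 4.85 there (adjusted p = 4.12e-04). In ipRGC pools Dpysl3 fell by 4.45, Tubb2b by 4.91, Marcksl1 by 4.08, Dpysl5 by 2.16, Tubb2a by 1.67 and Tuba1a by 2.06, and Gap43 was the eighth of the list's 21 genes to fall, by 2.12. The glial over RGC quotient of these adult ipRGC pools was 0.105 to 0.265, and the part of glial reads in the falls of either pool type was not tested.

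Cdkn1a, Ctxn1, Nnat, the transcription factor Klf8 (−5.08 in cRGC, −4.0 in ipRGC) and AW551984 (−5.15 and −5.38) were also among the 10 genes with the largest shared falls. The cRGC call of Klf8 was lost with the quasi-likelihood test and with DESeq2.

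The largest shared rises included genes of inhibitory neurons. Gad1 was at 46.6, 245 and 504 CPM in the lowest, median and highest adult cRGC libraries and 4.24, 1.29 and 11.8 CPM at P5, and at 62.2 to 277 CPM in adult ipRGC libraries against 0 to 1.78 at P5. Neither pool type overlapped between ages, and the rises were 5.25 and 6.35. Tfap2b rose by 5.17 and 5.23, and Tfap2a by 5.99 and 4.82. In ipRGC pools 7 of the 12 amacrine markers rose, and the amacrine sum per RGC marker read was 0.381 ± 0.127 in adults and 0.103 ± 0.00808 at P5. Amacrine marker reads were higher in both adult pool types.

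Rasgrf1, a Ras exchange factor activated by calcium in neurons, rose by 5.24 in cRGC and 6.39 in ipRGC pools. Prox1 rose by 5.07 and 5.05, Mgarp, a mitochondrial protein, by 5.37 and 4.96, and Filip1l by 5.27 and 4.76. The transcription factors Nfix and Hlf rose by 6.55 and 4.39 in cRGC and by 4.73 and 4.67 in ipRGC pools. Car2 rose by 6.89 and 4.50. Nfix, a nuclear factor I gene of late development, was at 245 to 1084 CPM in adult cRGC libraries and 4.40, 4.09 and 4.86 CPM at P5, without overlap.

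**Figure D4:**
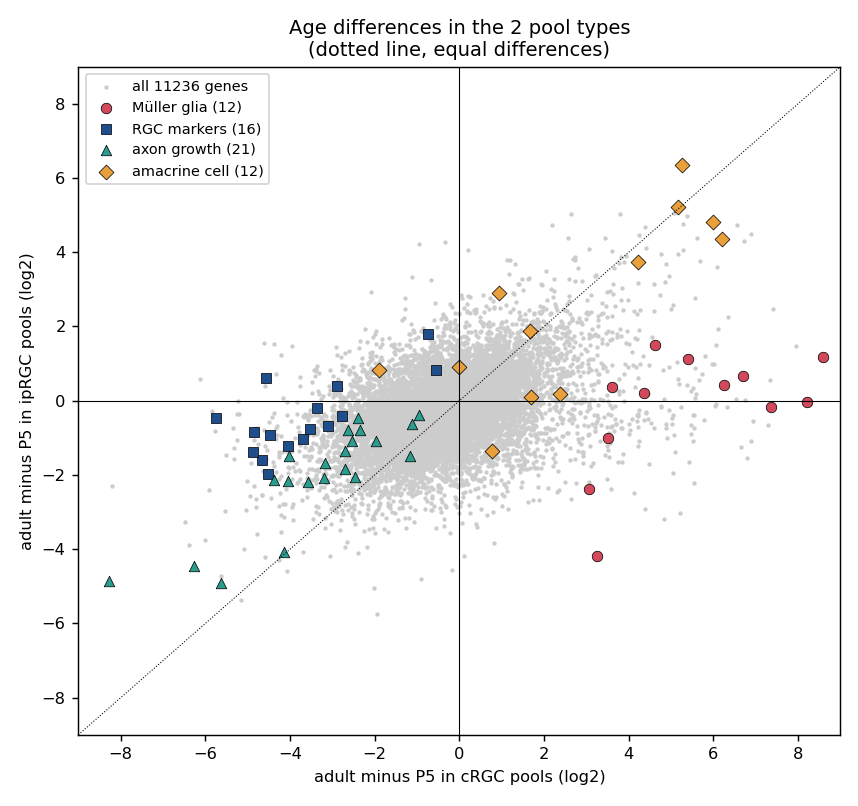
Adult minus P5 difference of each gene in cRGC pools (horizontal axis) and in ipRGC pools (vertical axis), log2, with 4 gene lists marked; the dotted line marks equal differences. Müller glia genes lie far to the right at a median of 0.29 in ipRGC pools, and axon growth genes lie lower in adults in both per total reads, while on the scale of RGC reads their cRGC median is −0.16.

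The difference between the age changes of cRGC and ipRGC pools was tested in 1 fit over 18 libraries. The adult minus P5 difference was larger in cRGC pools for 75 genes (0.667%) and smaller for 14 (0.125%). This fit did not pair cRGC and ipRGC libraries sorted from the same suspension, and with the pool as a block the counts were 56 and 16. Values for single genes below are from the fit without pairing. Of the 75, 71 were also called higher in adult cRGC pools, and of the 14, 11 were called lower. The 12 Müller glia genes included 11 of the 75, the exception being Rdh10. Glul was at 120 ± 41.9 CPM in adult and 87.5 ± 31.7 CPM in P5 ipRGC pools, so its age difference in cRGC pools was larger by 5.84 (SE 0.52, adjusted p = 4.1e-07).

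Ndnf, a secreted neurotrophic protein, showed another form of the same contrast. It was already at 274 ± 35 CPM in P5 ipRGC pools and at 259 ± 82.7 CPM in adult ones, but went from 4.08, 4.63 and 3.0 CPM in P5 to a median of 301 CPM in adult cRGC pools (rise 6.04, interaction 6.2). Synpr, the vesicle protein synaptoporin, was likewise at 641 ± 257 and 422 ± 206 CPM in P5 and adult ipRGC pools and rose by 2.93 in cRGC pools (interaction 3.60). The other genes with the smallest adjusted p were Pvrl3, a nectin (8.24), Timp3, a matrix protease inhibitor whose exons overlap Syn3 (7.76), Crym (7.97), Clu (4.29), Plekhb1 (8.33), Dkk3 (3.14) and Acsl3, a long-chain acyl-CoA synthetase (3.60). Uncalled ipRGC differences of −3.02 for Pvrl3 and −2.21 for Timp3 are part of these values.

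Among the 14 genes with a smaller difference in cRGC pools, Pirt was at 89.7, 122 and 50.9 CPM in P5 cRGC and at no more than 0.805 CPM in adult cRGC libraries, whereas adult and P5 ipRGC pools had 96.1 ± 71.0 and 53.8 ± 7.46 CPM. Its interaction was −6.72 (SE 1.07, adjusted p = 0.0015). Adcyap1, which encodes the peptide PACAP that ipRGCs release, fell in cRGC pools from 26.9, 29.0 and 32.9 CPM to a median of 1.14 CPM (interaction −5.41).

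Islr2 (−5.89), Sncg (−5.15), Gng4, a G protein γ subunit (−4.87), Tubb3 (−3.99) and Rgs4, a regulator of G protein signalling (−3.25), followed the same order, with adult ipRGC means of 188, 525, 361, 414 and 643 CPM against adult cRGC means of 1.58, 27.3, 16.2, 22.8 and 32.4 CPM. Hs3st2, a heparan sulfate sulfotransferase, had 472 reads over the P5 and 2 over the adult cRGC libraries, a P5 over adult ratio of 821 (95% counting interval 226 to 6798). Chrna6, a nicotinic subunit, and Nmb, the peptide neuromedin B, completed the 10 and were not called in cRGC pools. Nmb was at 0 in 4 of 6 adult cRGC libraries and rose from 0.762 ± 0.434 to 35.3 ± 17.1 CPM in ipRGC pools. On the scale of RGC reads, Islr2, Pirt, Hs3st2 and Tubb3 stayed lower in adult than in P5 cRGC pools. Sncg, Gng4, Rgs4 and Adcyap1 were not called on that scale. Tubb3 and Sncg are members of the RGC marker sum that sets it. The difference between pool types was not fitted on the scale of RGC reads.

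**Figure D5:**
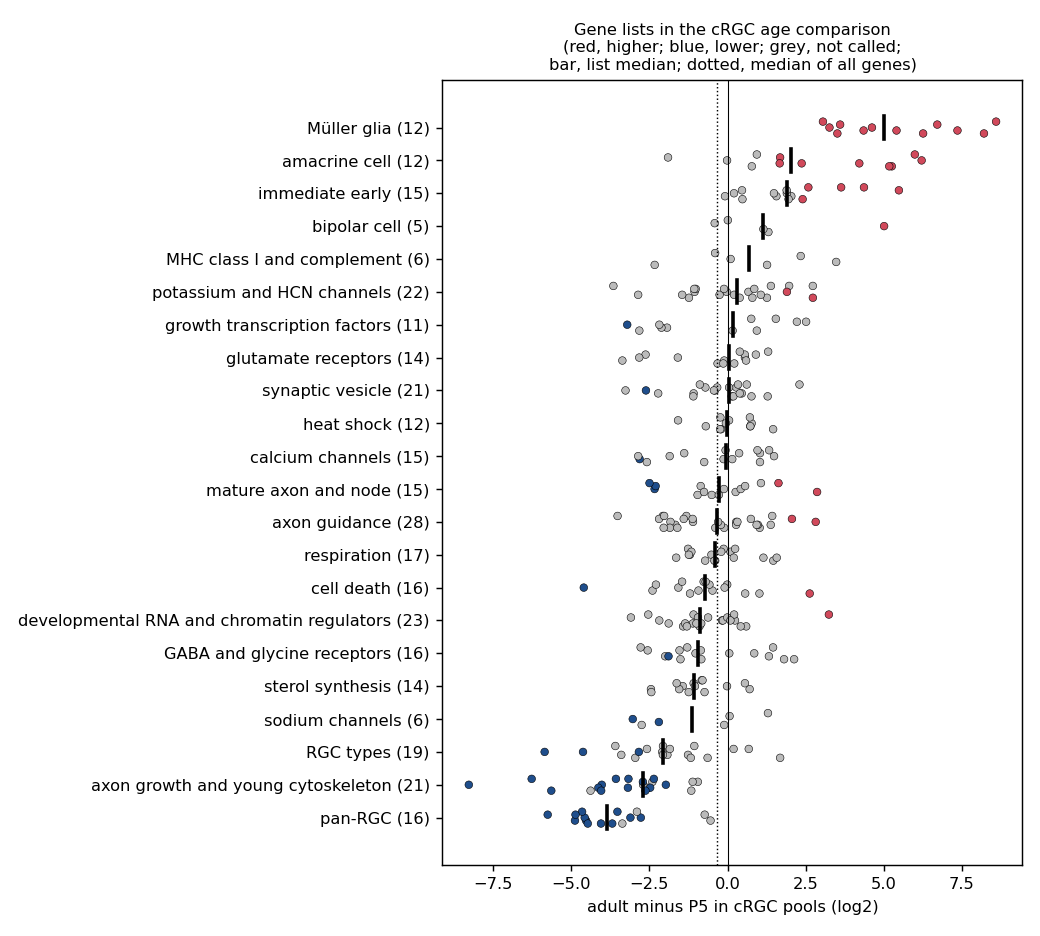
Adult minus P5 differences (log2) in cRGC pools for the members of 22 gene lists with at least 5 members listed at both ages; points are genes coloured by call and bars are list medians. Müller glia and amacrine lists lie to the right, RGC marker and axon growth lists to the left per total reads (medians −3.87 and −2.71, or −1.22 and −0.16 on the scale of RGC reads), and the medians of the channel and synapse lists run from −1.15 to 0.30 beside −0.34 for all genes.

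Genes of ion channels and synapses include many that are known to rise as RGCs mature, and their calls in the cRGC pools rested on the scale. On the scale of RGC reads, where 29.1% of all genes were higher, 12 of 22 potassium and HCN channel genes were higher, 2 of 6 sodium channel, 7 of 15 calcium channel and 9 of 14 glutamate receptor genes, and 11 of 15 genes of the mature axon. None of these 5 lists had a lower call on that scale, and their medians were 1.43 to 2.86 against 1.96 for all genes. The values that follow are per total reads, where 2.8% of all genes were higher and 1.83% lower. Of 22 potassium and HCN channel genes 2 rose and none fell, with a median of 0.30. Kcna1, a low-threshold potassium channel of axons, was at 121, 174 and 417 CPM in the lowest, median and highest adult libraries and 18.1, 31.5 and 39.6 CPM at P5, a rise of 2.73 (SE 0.56, adjusted p = 0.00754) without overlap. Kcnh2 rose by 1.90. The call of Kcna1 was lost without P5 pool 1, and that of Kcnh2 in 6 of the 9 fits that left out a library and with the quasi-likelihood test. Of the 22, 4 were higher and 1 lower without adult pools 2 and 4. In ipRGC pools 7 of the 22 rose, Kcna1 by 3.22 and Kcnh2 by 2.56. The 2 counts were not compared by a test, and none of the 22 was called in the test of the difference between pool types described above.

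Of 6 sodium channel genes 2 fell, Scn3a, the channel of young neurons, by 3.03, and Scn2a1, the early axonal sodium channel, by 2.20, and both calls were lost whichever P5 library was left out. In ipRGC pools neither was called, and the auxiliary subunit Scn2b rose by 2.87. Of 15 calcium channel genes 1 fell, the N-type channel Cacna1b, by 2.81, a call lost without P5 pool 1 or 2. None of 14 glutamate receptor genes was called in cRGC pools, while Gria3 was 1 of 2 that rose in ipRGC pools (2.86). Of 16 GABA and glycine receptor genes 1 fell and none rose in cRGC pools, and 5 were higher on the scale of RGC reads. On the scale of RGC reads, Scn2a1 (0.45) was above 0 and uncalled.

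Among 21 synaptic vesicle genes 1 fell, Syt4, a synaptotagmin of growing axons, by 2.61, with adult pool values from 54.3 to 721 CPM that overlapped the 715 CPM of the lowest P5 library. Its call was lost in 5 of the 9 fits that left out a library. Snap25, the SNARE protein of vesicle fusion, was at 2488 to 10820 CPM in adult and 3844 to 5808 CPM in P5 cRGC libraries, a difference of 0.28 (adjusted p = 0.798), and rose by 1.84 in ipRGC pools. Of 15 genes of the mature axon 2 rose and 3 fell. Atp1b2, a sodium pump subunit, rose by 1.63, a call lost whichever P5 library was left out. Ina, Mapt and Kif5a, an intermediate filament, tau and a kinesin, fell by 2.33, 2.30 and 2.50, and on the scale of RGC reads stood at 0.33, 0.36 and 0.16. Their calls were lost in 6, 4 and 2 of the 9 fits that left out a library, each of them with the quasi-likelihood test, and those of Ina and Mapt also with DESeq2. Adult pool values of Ina reached 1214 CPM and overlapped P5, and its exons overlap Nt5c2.

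Of 28 axon guidance genes 2 rose and none fell per total reads, Sema5a, a semaphorin of retinal axon repulsion, by 2.82, and the repellent Slit2 by 2.06, a call lost in 5 of the 9 fits that left out a library and with the quasi-likelihood test. Of the 28, 4 were higher and 3 lower without adult pools 2 and 4, and on the scale of RGC reads 12 were higher. Of 11 growth transcription factors 1 fell, Klf7, which promotes axon growth, by 3.21, a call lost in 6 of the 9 fits that left out a library, and its exons overlap another transcript on the opposite strand. Klf9, a factor that limits axon growth, rose in ipRGC pools (2.79) and had a difference of 2.22 in cRGC pools (adjusted p = 0.124), without overlap between ages. The developmental RNA and chromatin list had 1 rise in 23, Ptbp1 (3.24), a splicing repressor that glia and progenitors retain and neurons lose. The call of Ptbp1 was lost without P5 pool 2. Per total reads no gene was called among 14 of sterol synthesis, 17 of respiration, 12 of heat shock and 6 of MHC class I and complement. On the scale of RGC reads 2, 8, 9 and 4 of these were higher, and without adult pools 2 and 4 there was 1 lower gene of sterol synthesis and 2 MHC class I and complement genes were higher.

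Immediate early genes, which cells induce quickly after stimulation or dissociation, stood out among the remaining lists, as 5 of 15 rose and none fell, with a median of 1.90. Egr1 was at 465, 1341 and 4018 CPM in the lowest, median and highest adult libraries and 69.4, 90.7 and 189 CPM at P5. All adult libraries lay above P5, and Egr1 rose by 3.63 (SE 0.57, adjusted p = 7.35e-04). Cyr61 rose by 5.48, Zfp36 by 4.36, Dusp1 by 2.59 and Fos by 2.40. The call of Fos was lost in 3 of the 9 fits that left out a library and that of Dusp1 in 1. In ipRGC pools Egr1 was the only one called, with a rise of 2.86. Cyr61 and Zfp36 averaged 1.54 and 3.81 CPM in adults there, against 320 and 361 CPM in adult cRGC pools. The 15 genes summed to means of 448 CPM in P5 and 3201 CPM in adult cRGC pools. In ipRGC pools the sums were 316 and 1727 CPM and the list median was 1.69. None of the 15 was called in the test of the difference between pool types. Among 16 cell death genes 1 rose and 1 fell per total reads. The rise was that of Ngfr, the p75 neurotrophin receptor, which Müller glia are known to carry, by 2.63, a call lost in 5 of the 9 fits that left out a library.

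Of 19 genes that mark RGC types 3 fell and none rose, with a median of −2.06 per total reads and of 0.54 on the scale of RGC reads, where 1 fell and 2 rose. Tbr1, a T-box factor of several RGC types, fell by 4.62 and Tbx20, another T-box factor, by 2.84. The call of Tbx20 was lost in 5 of the 9 fits that left out a library, and both calls with the quasi-likelihood test, that of Tbr1 also with DESeq2. Opn4 itself had a difference of 1.68 (adjusted p = 0.167) and Eomes, the factor of ipRGC identity, one of −1.26 (adjusted p = 0.631). Without adult pools 2 and 4, 7 of the 19 were lower and 1 higher.

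Listing at a single age gives a further, untested view, since a gene left out of 1 table has no value there. Among genes listed at P5 only were Bcl11b, a zinc-finger factor of young projection neurons, with 73.6 ± 20.3 CPM, Irx4 with 59.6 ± 8.36 CPM, Pou4f3 with 50.4 ± 11.5 CPM, the axon repellent Draxin with 56.7 ± 11 CPM, Tfap2d with 88.8 ± 31.3 CPM and Sox11 with 27.4 ± 12.5 CPM (SD, n = 3 each). Proliferation marker Mki67 was at 3.64 ± 1.75 CPM. Adult-only genes included Slc32a1, the vesicular GABA transporter, with 161 ± 71.1 CPM (SD, n = 6).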

How the data were processed

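Sequencing reads of sorted pools were clipped and quality filtered with the fastx tools, aligned to mm9 with TopHat2 and counted per gene with htseq-count, and the authors deposited CPM values of the TMM-scaled library size (a signal, from edgeR) for each age separately, without genes under 1 CPM in most samples. The settings for strand were not given in the sources used here. Deposited counts of quality-filtered reads gave the recorded runs. Deposited columns of the authors' own comparisons, with fold changes and p-values, were not used.

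Whole reads were recovered from each column (100% of values within 0.01 of a whole number), the 11236 genes listed at both ages were kept, and all libraries were scaled together by TMM. Log2(CPM + 1) values were tested with limma 3.58.1 (trend) in R 4.3.3, and the added 1 understates a fold change of a low gene. Differences are between means of log2 values, so a fall can exceed the ratio of mean CPM where adult pools varied widely. Pou4f1, at means of 31.2 CPM in adult and 620 CPM in P5 cRGC pools, had a fitted fall of 53.9-fold. A gene was called at a Benjamini-Hochberg adjusted p under 0.05 over all genes and a log2 difference over 1. Marker sums use CPM of listed reads without TMM. Count tests on the recovered reads, edgeR 4.0.16 (quasi-likelihood, 225 higher and 63 lower) and DESeq2 1.42.0 (727 and 169), were alternatives, as were other scalings, pseudocounts of 0.5 and 5, a mean of at least 5 CPM, leaving out libraries, array weights and a replicate block.

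The design allows a p-value to measure only the spread between pools, and precision at low levels is limited by depth, with 3927386 listed reads in the shallowest library. Members and gene lists were chosen with earlier results of these data known. Named genes were the 15 largest rises and 15 largest falls with a mean of at least 5 CPM in the higher group and no overlap, list members, the 10 largest changes of each direction shared with ipRGC pools, and the 10 genes of each direction with the smallest adjusted p for the difference between pool types. Some genes that met these rules are not reported here. Any other gene named was chosen after its values were seen. Promoter windows came from RefSeq on GRCm38.p6 and matched 8108 of the 11236 genes, so that motif shares are given only over all promoters. Scripts were tested on simulated data.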

Additional observations from a re-analysis of the deposited data

Results flagged for a closer look

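Single adult cRGC pools stood apart from the other 5 at 6 of the 36 groups of values examined for a lone high or low library (Dixon's ratio of CPM above 0.625 for 6 libraries). Chance exceeds this ratio in about 1 in 20 groups of normally distributed values. CPM values were not shown to be normal, so that rate cannot be set beside the count here. Gap43 was at 1201 CPM in adult pool 2 and at 0.329 to 67.6 CPM in the other adult cRGC pools. Pou4f1 was at 135 CPM and Opn4 at 466 CPM in adult pool 4, against 0 to 26.4 and 69.9 to 170 CPM in the others. Dcx was at 33.5 CPM and Kcna1 at 417 CPM in adult pool 3, against 0.0847 to 10 and 121 to 209 CPM. Islr2 was at 6.89 CPM in adult pool 6 and at 0 to 1.92 CPM elsewhere. Pools 2 and 4 were also the ones with most genes at 0.

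The adult minus P5 difference differed between cRGC and ipRGC pools, by the test of that difference (limma, adjusted p under 0.05), for the following named genes, given as the cRGC minus the ipRGC difference on the log2 scale. Among Müller glia genes it was larger in cRGC pools by 5.84 for Glul, 7.42 for Rlbp1, 7.53 for Apoe, 6.04 for Slc1a3, 8.25 for Kcnj10, 7.45 for Vim, 5.44 for Gpr37, 4.29 for Clu and 3.14 for Dkk3. Among the other large rises it was larger by 6.47 for Slc38a3, 4.94 for Fzd5, 6.78 for Cp, 7.96 for Bmp3, 7.48 for Kdr, 7.97 for Crym, 8.33 for Plekhb1, 6.72 for Pla2g16 and 7.92 for Cav1. It was also larger by 6.2 for Ndnf, 8.24 for Pvrl3, 7.76 for Timp3, 3.60 for Synpr, 3.60 for Acsl3, 6.47 for Notch1, 5.29 for Ngfr and 2.87 for Sema5a. In the other direction the value was −5.89 for Islr2, −6.72 for Pirt, −5.41 for Adcyap1, −5.15 for Sncg, −5.45 for Hs3st2, −4.87 for Gng4, −4.60 for Nmb, −3.99 for Tubb3, −3.82 for Chrna6 and −3.25 for Rgs4. The adult cRGC pools held more Müller glia marker reads than the other 3 groups, and the part of those reads in these differences was not tested. The test of the difference was not run on the scale of RGC reads. Each value can hold a change in ipRGC pools as well as one in cRGC pools. The ipRGC difference was −4.18 for Vim, −2.38 for Gpr37, −3.02 for Pvrl3 and −2.21 for Timp3, none of them called. Dkk3 had a called rise of 1.49 in ipRGC pools.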

How the results depend on the processing

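Of the 315 higher and 206 lower genes in cRGC pools, leaving out 1 library at a time gave 175 to 414 higher and 68 to 304 lower, with the fewest calls when 1 of the 3 P5 libraries was left out. In ipRGC pools (147 and 58) the ranges were 37 to 218 and 8 to 121, and for the difference between pool types (75 larger, 14 smaller) 25 to 95 and 2 to 34. The edgeR quasi-likelihood test gave 63 lower genes in cRGC pools, 83 and 20 in ipRGC pools, and 28 and 5 for the difference. DESeq2 gave 727 higher in cRGC pools, 456 and 100 in ipRGC pools, and 118 and 35. Without adult pools 2 and 4 the counts were 694 and 549, 312 and 252, and 202 and 89. Array weights gave 1035 and 1238 in cRGC pools, and scaling to RGC reads 3275 and 16. Scaling by listed reads only gave 46 and 22 for the difference between pool types, and leaving out the adult libraries with 1 recorded run 22 and 6. A pseudocount of 5 gave 94 lower genes in ipRGC pools. Summed vascular reads in adults were 4.25 times those at P5 without P5 pool 2 and 66.8 times without P5 pool 3. The cause of these shifts was not tested, beyond the fewer libraries fitted where some were left out. Depth limited low genes, since 1 read was worth most in the shallowest adult library.

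Adult and P5 replicate numbers did not pair the cRGC samples (r of their deviations 0.0011, 0.060 and −0.030), so these numbers are names only. A replicate block gave 468 higher and 367 lower genes in cRGC pools, and 222 and 117 in ipRGC pools. With the pool as a block, for cRGC and ipRGC libraries sorted from the same suspension, the difference between pool types was called for 56 and 16 genes.

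Of the 99 named genes called in cRGC pools, 65 to 98 kept their call in the fits that left out 1 library, 72 with the quasi-likelihood test and 98 without adult pools 2 and 4, and none of these reversed. On the scale of RGC reads 64 kept their call and 9 changed sign: Tuba1a (0.19), Map1b (0.31), L1cam (0.035), Basp1 (0.69), Scn2a1 (0.45), Syt4 (0.048), Ina (0.33), Mapt (0.36) and Kif5a (0.16). Uncalled genes that changed sign there were Thy1 (1.93), Nefh (1.95), Eomes (1.13), Gfap (1.59), Chrna6 (0.67) and Nmb (0.29). Nefh was also above 0 with quasi-likelihood (0.66), DESeq2 (0.64) and, over the fits that left out 1 library, from −1.10 to 0.19 (without adult pool 4), Gfap from −1.18 to 0.27 (without P5 pool 3), and Snap25 was at −0.13 with array weights.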
